A study of Mus musculus with 3 samples.

Results

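The mouse genes Trac, Trbc1, Trbc2, Cd3e, Cd3d, Cd3g and Cd247 encode the invariant parts of the alpha-beta T cell receptor and were taken by name. All 7 were found by matching the gene identifiers of the count tables to symbols, among 50600 annotated genes. The cells were mouse primary cells of strain C57BL/6NJ labelled T-helper 1, profiled by stranded paired-end RNA sequencing in 1 group of 3 libraries. The libraries were labelled biological replicates 1, 2 and 3, from separate biosamples that carry the same donor identifier. The labels give age and developmental stage as unknown and sex as not collected, and they link a protocol for differentiating CD4 T cells. No treatment is named, and the headers of the count tables carry a time of 0 hours. The assay is labelled total RNA, whereas the title of the linked library protocol names polyA+ RNA. With this single group, the comparisons below set genes against each other inside a library, or the 3 libraries against each other.

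Each alpha-beta T cell carries on its surface a heterodimer of an alpha and a beta chain that recognises a peptide held by an MHC molecule. The variable part of each chain is made by joining gene segments, and the constant part comes from Trac for the alpha chain and from Trbc1 or Trbc2 for the beta chain. These chains have short tails inside the cell and cannot signal. The signal passes through the CD3 gamma, delta and epsilon chains (Cd3g, Cd3d and Cd3e) and the zeta chain (Cd247), whose tyrosine motifs are phosphorylated by the kinase Lck and then bind the kinase Zap70. The chains assemble in the endoplasmic reticulum, and incomplete receptors are kept there and degraded, so the supply of each chain bears on how much receptor reaches the surface.

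The libraries held 3647366, 4305077 and 2510319 counted fragments in replicates 1, 2 and 3. Counting used 1 strand (setting 1, first read on the gene's strand), and no source used here names the library kit. Genes whose exons overlap exons of the other strand held 63.1%, 53.8% and 76.5% of the counts in replicates 1, 2 and 3. Whether the counted strand is the strand of the transcripts was not tested, so each level below is that of fragments on the counted strand. With a kit of the opposite orientation, those fragments would belong to the other strand of the locus. Levels compared between genes are in TPM, which divide each count by the summed exon length of the gene and bring all libraries to the same total. Differences between libraries are in CPM, which are counts scaled to library size without a length, here with trimmed mean (TMM) sizes. In such bulk libraries fewer cells of a type and less RNA per cell cannot be told apart.

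Of the 7 T cell markers Cd4, Cd2, Cd5, Cd6, Cd28, Lck and Thy1, all 7 reached 1 TPM in every library (41.6% of protein-coding genes did). Their summed level was 1409, 2120 and 702 TPM in replicates 1, 2 and 3. Of 6 B cell markers 1 reached 1 TPM in every library, and their sum was 33.5 to 49.6 TPM. It came almost wholly from Cd79a, while Pax5, Ms4a1 and Igkc had 0 counts. Of 5 NK cell markers 1 reached that level (sum 3.30 to 9.04 TPM), with Klrb1c and Klra8 at 0 counts. Of 6 myeloid markers Csf1r alone did (sum 68.0 to 95.9 TPM), and its exons overlap those of Hmgxb3 on the other strand. Adgre1, Cd14 and S100a8 had 0 counts. Of the 4 Th1 markers, the transcription factor gene Tbx21 and the cytokine gene Ifng each had 1, 3 and 0 counts, Cxcr3 had none, and Il12rb2, whose exons overlap the other strand, had 93, 89 and 102.

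All 7 genes reached 1 TPM in every library, as did 23.3% of all annotated genes and 41.6% of protein-coding genes. On the summed exon length the constant genes had the highest mean levels per base, in the order Trbc2, Trac, Trbc1 in every library, and in replicate 3 Cd247 stood above all 3. With the principal transcript lengths, an alternative chosen after seeing the data, Cd247 (724 TPM) and Cd3g (542 TPM) stood above Trbc2 (484), Trac (458) and Trbc1 (384). Trac (chr14:54220521-54224206, plus strand, mm10) had 942, 1781 and 310 counts in replicates 1, 2 and 3, which gave 535, 972 and 222 TPM (mean 576 ± 377, SD, n = 3). Trbc1 (chr6:41538218-41539881, plus strand) had 631, 1158 and 213 counts, or 448, 789 and 190 TPM (476 ± 300). Trbc2 (chr6:41546730-41548352, plus strand) had 725, 1402 and 246 counts, or 557, 1034 and 238 TPM (610 ± 401). Replicate 2 was the highest and replicate 3 the lowest library for each of the 3 genes, and the coefficient of variation was 63.2% to 65.7%.

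**Figure D1:**
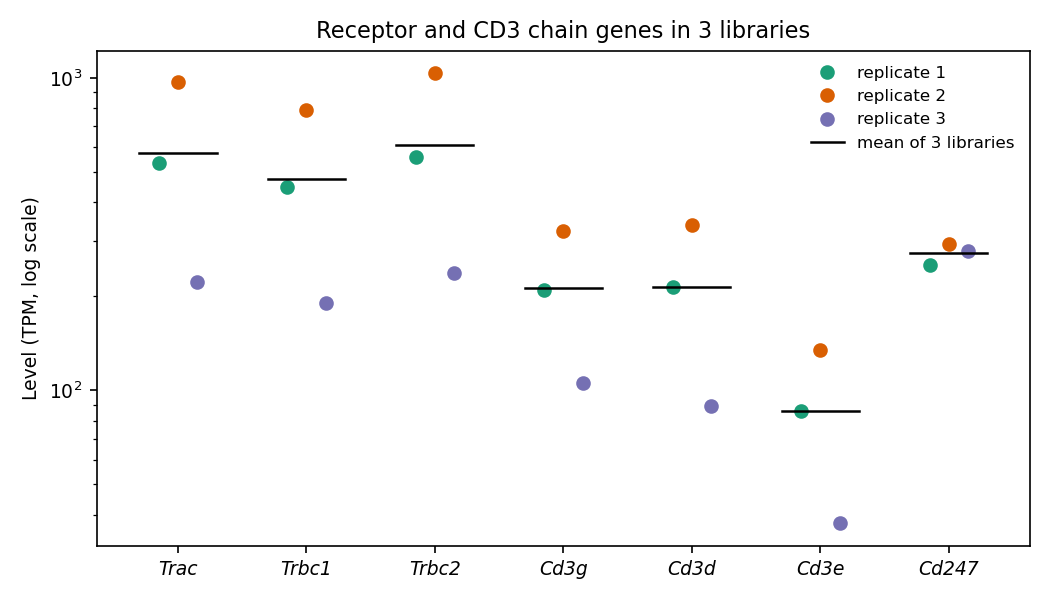
Level of each of the 7 receptor genes in TPM (log axis), with 1 point per library and a line at the mean of 3 libraries. For 6 genes replicate 2 is the highest and replicate 3 the lowest, while the Cd247 points lie between 252 and 295 TPM.

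The 2 beta constant genes are near-identical copies 6848 bases apart, and their sequences show which bases can tell a fragment of Trbc1 from one of Trbc2. Exon 1 is 375 bases long in both and differs at a single base, C260A, with Trbc1 first and positions counted from base 1 of exon 1. The coding part of 521 bases differs at 23 bases (95.6% identity), and 22 of these lie in the 146 coding bases after exon 1. The stretches below come from the GENCODE M21 transcripts (mm10) and are shown because all coding differences lie in them, with the differing bases in capitals. Bases 221 to 300 lie at chr6:41538438-41538517 in Trbc1 and chr6:41546950-41547029 in Trbc2, and bases 361 to 521 run across exon joints to the stop codon.
Trbc1 bases 221 to 300: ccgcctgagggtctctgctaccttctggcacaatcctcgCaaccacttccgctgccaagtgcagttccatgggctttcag
Trbc2 bases 221 to 300: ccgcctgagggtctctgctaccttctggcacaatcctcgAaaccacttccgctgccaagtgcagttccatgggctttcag
Trbc1 bases 361 to 521: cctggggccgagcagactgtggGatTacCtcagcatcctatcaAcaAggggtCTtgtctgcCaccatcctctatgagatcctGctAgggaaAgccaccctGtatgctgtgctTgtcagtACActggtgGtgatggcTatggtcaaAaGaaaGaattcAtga
Trbc2 bases 361 to 521: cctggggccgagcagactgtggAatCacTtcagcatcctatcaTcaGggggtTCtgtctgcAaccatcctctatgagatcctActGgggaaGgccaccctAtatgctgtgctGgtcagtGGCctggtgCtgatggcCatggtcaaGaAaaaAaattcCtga
Of all 50-base windows of the annotated transcripts, 283 of 688 in Trbc1 (41.1%) and 283 of 643 in Trbc2 (44.0%) occur in the other gene unchanged. With 100-base windows the shares were 28.7% and 30.9%. The counting command had no option to count fragments with several positions, so fragments from the shared bases may be missing from both genes, and the levels of Trbc1 and Trbc2 are uncertain for that reason.

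Within these limits Trbc2 stood above Trbc1 in every library. The ratio of counts per base was 1.24 in replicate 1 (95% Clopper-Pearson interval 1.12 to 1.39), 1.31 in replicate 2 (1.21 to 1.42) and 1.25 in replicate 3 (1.04 to 1.51). The 3 intervals overlap one another and all lie above 1. The mean log2 ratio was 0.34 ± 0.04 (SD, n = 3), with an exact sign-flip p of 0.25, the smallest that 3 libraries allow. This design cannot reach 0.05 for any ratio, and intervals cover counting error only.

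Trac was compared with both beta genes together, since each receptor holds an alpha chain and a beta chain. Per base it stood at 0.533, 0.533 and 0.518 of the sum of Trbc1 and Trbc2 in replicates 1, 2 and 3 (mean log2 ratio -0.92 ± 0.02). The ratio of Trac to the beta genes thus spanned a far narrower range than the level of Trac itself. The highest library of Trac was 4.38 times its lowest in TPM and 1.97 times in TMM-scaled CPM.

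Trbc1 and Trbc2 each lie behind a cluster of 7 joining segments on the plus strand, and a joined beta gene is spliced to the constant gene behind its joining segment. The Trbj1 segments had 92, 195 and 46 counts in replicates 1, 2 and 3, and the Trbj2 segments 99, 162 and 36. Per base, Trbj2 over Trbj1 was 1.10 (0.818 to 1.47), 0.848 (0.684 to 1.05) and 0.799 (0.502 to 1.26), so that every interval included 1. The excess of Trbc2 over Trbc1 was not seen at their joining segments, and in replicate 2 the interval of the segments lay wholly below that of the constant genes (1.21 to 1.42). Joining segments and constant genes were counted as separate features, and how fragments spanning both were counted was not tested. The ratios at segments and at constant genes may thus not cover the same fragments. Counts at the Trbj1 segments were 0.146, 0.168 and 0.216 of those at Trbc1, and counts at the Trbj2 segments 0.137, 0.116 and 0.146 of those at Trbc2.

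The most counted segment of the first cluster was Trbj1-3 with 23, 50 and 11 counts, followed by Trbj1-5 with 14, 31 and 18 and Trbj1-2 with 12, 38 and 6. In the second cluster Trbj2-1 led with 24, 47 and 11 counts, before Trbj2-7 with 32, 34 and 6 and Trbj2-3 with 10, 21 and 11. All 14 segments had a count, and no segment carried its cluster alone. Both diversity segments in front of the clusters, Trbd1 and Trbd2, were counted as well, with 18, 38 and 7 counts together.

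**Figure D2:**
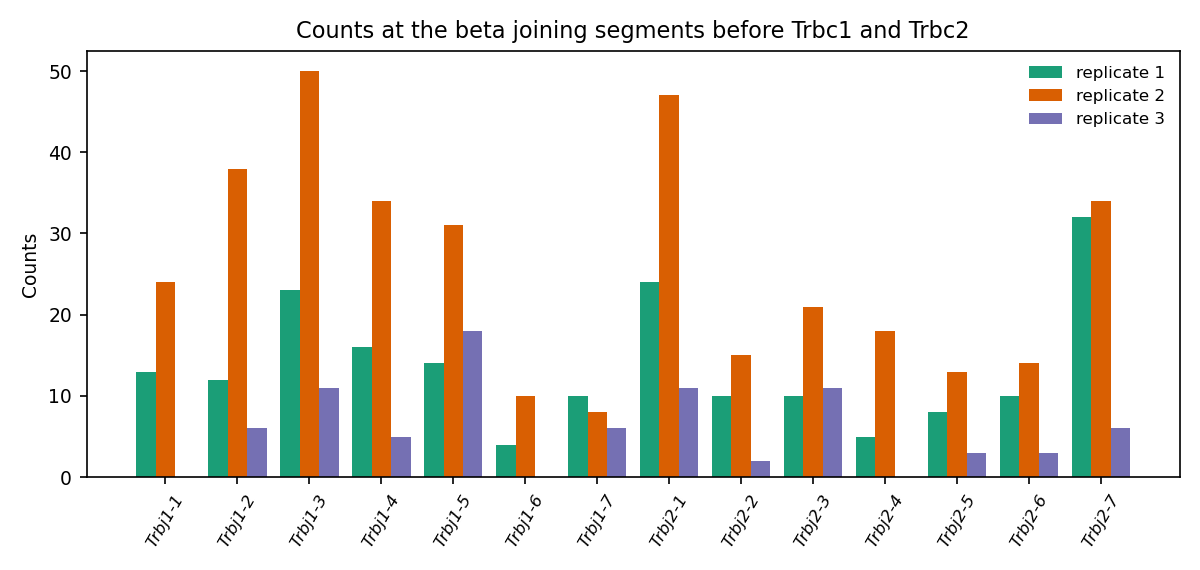
Counts at the 7 joining segments before Trbc1 (Trbj1) and the 7 before Trbc2 (Trbj2), with 1 bar per library. Trbj1-3 and Trbj2-1 are the tallest of their clusters in replicate 2, at 50 and 47 counts.

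At the alpha locus, 49 of 60 annotated Traj segments had a count, with 144, 180 and 38 counts in all. These made 0.153, 0.101 and 0.123 of the Trac counts in replicates 1, 2 and 3. The 30 segments nearest to Trac, Traj31 to Traj1, held 115, 149 and 28 of the counts, and the 30 far segments, Traj61 to Traj32, held 29, 31 and 10. Summed over libraries the near segments thus held 80.7% and the far ones 19.3%. Traj6 (9, 22 and 2 counts), Traj3 (7, 20 and 0) and Traj2 (6, 14 and 5) were the most counted. By contrast the joining segments of the delta locus, which lies within the alpha locus, had 1 count in all.

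The 3 CD3 genes sit together on chromosome 9, in the order Cd3g, Cd3d and Cd3e. Cd3g (chr9:44969572-44980431, minus strand) had 1290, 2067 and 517 counts in replicates 1, 2 and 3, or 210, 323 and 106 TPM (213 ± 108). Cd3d (chr9:44981786-44987339, plus strand) had 732, 1204 and 241 counts, or 214, 339 and 88.9 TPM (214 ± 125). Cd3e (chr9:44998740-45009627, minus strand) had 658, 1072 and 229 counts, or 85.7, 134 and 37.6 TPM (85.8 ± 48.3). In all 3 genes replicate 2 was again the highest library and replicate 3 the lowest. The starts of Cd3g and Cd3d face away from each other across 1354 bases, and Cd3e follows 11400 bases beyond Cd3d.

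Cd3d and Cd3g pair separately with epsilon, so both their ratio to each other and their ratio to Cd3e were examined. Per base, Cd3d over Cd3g was 1.02 (0.932 to 1.12), 1.05 (0.976 to 1.13) and 0.840 (0.718 to 0.980) in replicates 1, 2 and 3. The mean log2 ratio was -0.05 ± 0.18 (exact sign-flip p = 1.0), and it changed sign to 0.050 without replicate 3. Cd3e over Cd3d was 0.400, 0.396 and 0.423 (mean log2 ratio -1.30 ± 0.05), and Cd3e over Cd3g was 0.409, 0.416 and 0.355 (-1.35 ± 0.12). Epsilon, the chain that both dimers share, thus had the lowest level per base of the 7 genes in all 3 libraries on the summed exon length.

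That order turned on the length used. The summed exons of Cd3e measure 4080 bases and those of Cd3g 3269, against principal transcripts of 1462 and 1023 bases. With the principal transcripts Cd3e stood at 191 ± 102, Cd3d at 191 ± 106 and Cd3g at 542 ± 261 TPM. The log2 ratio of Cd3e to Cd3d was then 0.014 in place of -1.30. The order by mean TPM on the summed exon length was Trbc2, Trac, Trbc1, Cd247, Cd3d, Cd3g and Cd3e, and 3 neighbouring pairs of it (Trbc1 and Cd247, Cd247 and Cd3d, Cd3d and Cd3g) kept their order in only 2 of 3 libraries. The log2 ratio of Cd3d to Cd3g was -1.56 in place of -0.05. Cd3e lay below Cd3g with each length, by a log2 ratio of -1.35 on summed exons, -1.04 on the longest and -1.55 on the principal transcripts, whereas the place of Cd3d relative to both depended on the length.

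The promoters of these genes were examined for short motifs of factors with a known place in T cell genes. RefSeq windows from 250 bases before to 50 after the start (GRCm38.p6) held 4 of the 7 genes, Cd3g, Cd3d, Cd3e and Cd247. They are shown because all 4 held CACCTG on either strand, an E-box of the kind that E proteins bind. Capitals mark these matches, and on the minus strand of a window they read CAGGTG. In genome coordinates the windows are chr9:44980382-44980681 (minus strand) for Cd3g, chr9:44981536-44981835 (plus) for Cd3d, chr9:45009562-45009861 (minus) for Cd3e and chr1:165788431-165788730 (plus) for Cd247.
Cd3g: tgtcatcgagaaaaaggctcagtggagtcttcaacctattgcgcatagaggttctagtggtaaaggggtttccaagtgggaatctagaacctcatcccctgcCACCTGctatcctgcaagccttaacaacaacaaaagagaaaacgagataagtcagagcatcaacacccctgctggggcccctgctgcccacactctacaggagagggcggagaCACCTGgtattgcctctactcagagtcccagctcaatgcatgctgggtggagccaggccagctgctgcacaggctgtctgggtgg
Cd3d: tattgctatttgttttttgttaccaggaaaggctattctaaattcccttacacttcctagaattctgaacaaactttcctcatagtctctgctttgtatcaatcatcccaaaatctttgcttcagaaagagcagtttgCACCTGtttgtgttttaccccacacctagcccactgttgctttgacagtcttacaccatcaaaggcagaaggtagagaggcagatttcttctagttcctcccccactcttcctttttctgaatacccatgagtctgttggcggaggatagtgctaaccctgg
Cd3e: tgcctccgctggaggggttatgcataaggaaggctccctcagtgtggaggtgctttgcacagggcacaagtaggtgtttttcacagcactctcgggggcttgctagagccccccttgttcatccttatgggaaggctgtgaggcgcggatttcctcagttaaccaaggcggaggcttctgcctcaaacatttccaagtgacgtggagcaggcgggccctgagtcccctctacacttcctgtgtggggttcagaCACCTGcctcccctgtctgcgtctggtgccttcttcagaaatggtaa
Cd247: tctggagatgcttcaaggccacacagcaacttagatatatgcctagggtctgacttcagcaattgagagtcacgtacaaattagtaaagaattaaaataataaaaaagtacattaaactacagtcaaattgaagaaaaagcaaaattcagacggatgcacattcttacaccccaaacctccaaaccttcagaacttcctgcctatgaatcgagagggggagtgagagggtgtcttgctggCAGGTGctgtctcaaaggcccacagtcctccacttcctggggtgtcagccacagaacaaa
CACCTG began at -148 and -35 from the start in Cd3g, at -112 in Cd3d, at 4 in Cd3e and at -10 in Cd247, and it overlapped none of the other motif matches. Among all 32851 windows of 27025 genes, 20.2% held this motif. AGGAAG, a core of Ets factor sites, was found in Cd247, Cd3d and Cd3e and in 35.4% of all windows. CTTTGA, a Tcf and Lef core, was found in Cd247 and Cd3d (16.0% of windows) and the Gata core AGATAA in Cd3g (11.2%). TATAAA, the TATA box, and the Runx core TGTGGT were in none of the 4, against 13.6% and 16.8% of all windows. The motif letters were settled after a first look at these windows, and a match is a description of the sequence only.

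Cd247 differed from the other 6 genes in how its counts were spread over the libraries. The gene (chr1:165788681-165877277, plus strand) had 2529, 3079 and 2216 counts in replicates 1, 2 and 3, or 252, 295 and 278 TPM (275 ± 21.6). Its TPM values had a coefficient of variation of 7.84%, against 51.0% to 65.7% for the other 6. This contrast depended on the scale: in TMM-scaled CPM the coefficient was 41.9% for Cd247, the highest of the 7, and 15.5% to 32.7% for the other 6. With TPM taken over genes without exon overlap plus the 7 genes, Cd247 stood at 901, 813 and 1613. Replicate 2 stood at 1.06 times replicate 3 in TPM, where the same ratio was 3.05 for Cd3g and 4.38 for Trac. With the principal transcript of 1632 bases in place of 5329 summed exonic bases, the level of Cd247 was 724 ± 52.6 TPM.

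Set against Cd3e within each library, Cd247 stood at 2.94 (2.70 to 3.21), 2.20 (2.05 to 2.36) and 7.41 (6.46 to 8.53) per base in replicates 1, 2 and 3. The 3 intervals do not overlap, and replicate 3 lay far above the others. The mean log2 ratio was 1.86 ± 0.91, and 1.35 without replicate 3. As a share of the summed TPM of the 7 genes, Cd247 made 11.0%, 7.59% and 24.0%. The 7 genes together held 0.206%, 0.273% and 0.158% of all counts in replicates 1, 2 and 3, and without Cd247 0.136%, 0.202% and 0.0700%.

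**Figure D3:**
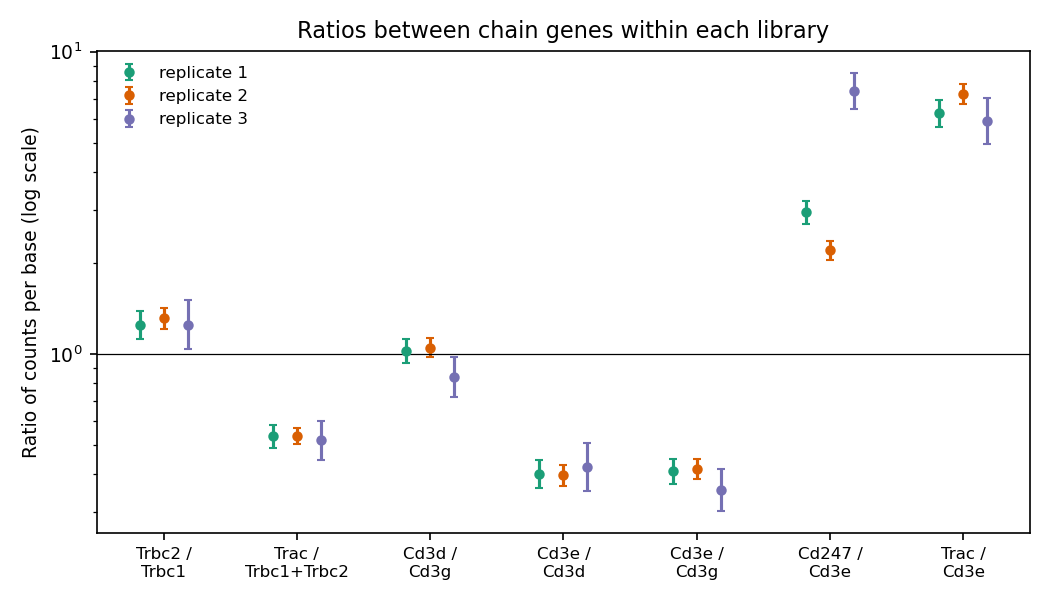
Ratio of counts per base between receptor genes within each library (log axis), with 95% Clopper-Pearson intervals of counting error. Cd247 over Cd3e spreads from 2.20 to 7.41, while Trac over the sum of Trbc1 and Trbc2 stays between 0.518 and 0.533.

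Exons of Cd247 and Cd3e, alone among the 7 genes, overlap exons of a gene on the other strand. Cd247 shares 3007 of its 5329 exonic bases (56.4%) with Pou2f1, which encodes the transcription factor Oct-1 and lies on the minus strand at chr1:165865154-166002678. Pou2f1 had 4452, 4892 and 3775 counts, and per base it stood at 0.565, 0.510 and 0.547 of Cd247 in replicates 1, 2 and 3. The log2 CPM of replicate 3 minus replicate 2 was 1.07 for Cd247 and 1.17 for Pou2f1. Over all tested genes with such an overlap the median of this difference was 1.02, and over those without it -0.37. How far the shared exons set the Cd247 counts was not tested.

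Cd3e shares 135 of its exonic bases (3.31%) with Gm48719, an antisense RNA gene of 361 exonic bases on the plus strand at chr9:44999429-45002985. Gm48719 had 4842, 4748 and 5241 counts, against 658, 1072 and 229 for Cd3e. Per base that was 83.2, 50.1 and 259 times the level of Cd3e in replicates 1, 2 and 3. The log2 CPM of replicate 3 minus replicate 2 was 1.69 for Gm48719 and -0.68 for Cd3e, so the CPM of the 2 genes differed between these libraries in opposite directions. Gm48719 was not alone in this: the antisense genes over 3 listed genes also exceeded, per base, the gene they overlap, Gm43434 by 29.3 to 83.4 times over Trdc, Gm13256 by 12.95 to 44.3 times over Gata3 and Gm43352 by 5.28 to 14.5 times over Lef1. Trdv5, a variable segment, stood at 4.01 to 11.0 times Trdc. The protein-coding genes Mrpl49 and Rab5if stood at 1.63 to 2.05 times Syvn1 and 0.491 to 0.543 of Sla2. Hmgxb3, a protein-coding gene over Csf1r, stood at 0.0493 to 0.255 of it. Whether these counts come from fragments of the genes opposite was not tested. Other-strand genes were looked up for only some of the listed genes with exon overlap, and Il12rb2 was among those left out. The exons of Gm48719 were the only other-strand exons found over exons of the CD3 cluster.

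**Figure D4:**
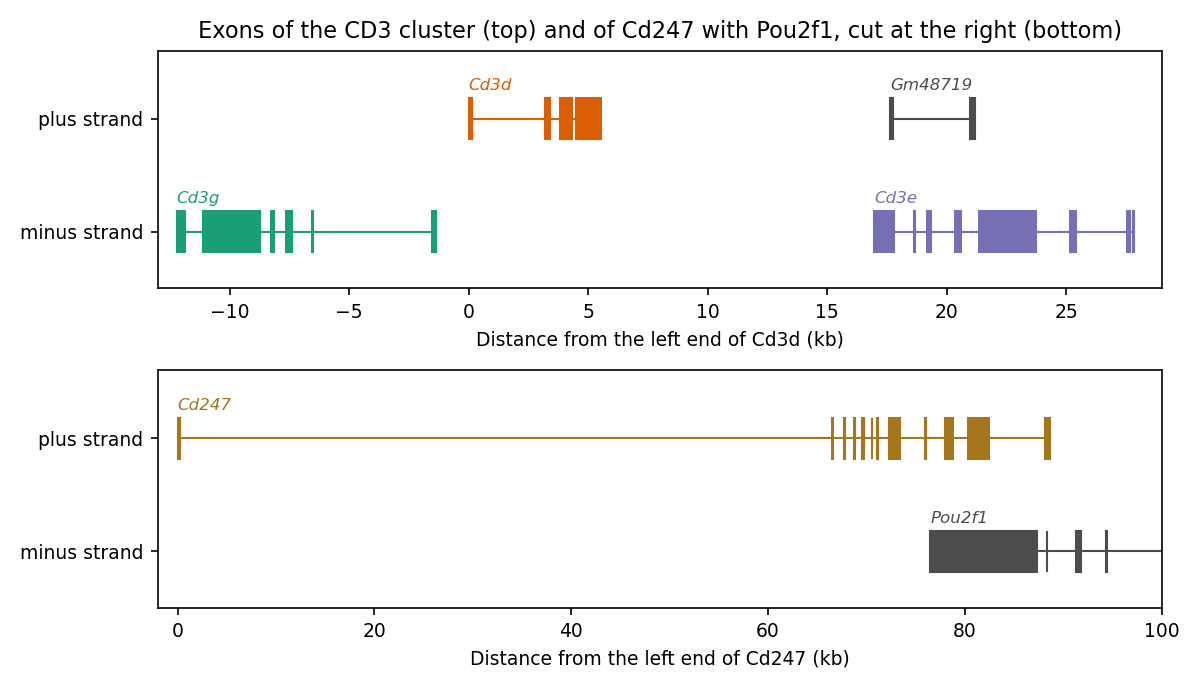
Exons (boxes) of the CD3 cluster with Gm48719 and of Cd247 with Pou2f1, by strand, against distance in kb from the left end of Cd3d (top) or Cd247 (bottom). The wide Pou2f1 box covers Cd247 exons on the other strand, and a Gm48719 box lies over the left Cd3e exon.

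All 7 genes varied between the libraries by more than counting error, in a Poisson chi-square test on TMM-scaled counts with Benjamini-Hochberg adjustment over 10662 genes. The adjusted p ranged from 1.1e-09 for Cd3e to 6.6e-170 for Cd247. As 62.4% of all tested genes passed the same test, this count does not set the 7 genes apart. The biological coefficient of variation estimated in edgeR was 0.361 to 0.444 for the 7 genes, with a median of 0.378, against 0.330 over all tested genes. The test compares these 3 libraries and not conditions, and since the libraries share a donor identifier their spread may be partly technical.

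The direction of the differences was shared by 6 genes. Trac had 261, 349 and 177 TMM-scaled CPM in replicates 1, 2 and 3, Trbc1 175, 227 and 122, and Trbc2 201, 275 and 141. Cd3g had 357, 405 and 296 CPM, Cd3d 203, 236 and 138, and Cd3e 182, 210 and 131. Each of the 6 was highest in replicate 2 and lowest in replicate 3, an order found in 35.4% of all tested genes and in 46.5% of those without exon overlap. Cd247 had 701, 603 and 1268 CPM, the reverse order.

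In log2 CPM, replicate 3 minus replicate 2 was -0.98 for Trac, -0.96 for Trbc2, -0.90 for Trbc1, -0.77 for Cd3d, -0.68 for Cd3e and -0.45 for Cd3g. The median over all 7 genes, Cd247 included, was -0.77. Over these 6 genes, set apart from Cd247 by their direction in these same data, it was -0.84. The medians were -0.11 over all tested genes and -0.37 over those without exon overlap, which Cd3e of the 6 does have. Under the other scalings, DESeq2 size factors, total counts and TMM from genes without exon overlap, the 6 genes kept replicate 2 as their highest and replicate 3 as their lowest library. Their median was then -0.73, -1.60 and -0.51, against -0.0059, -0.88 and 0.22 over all tested genes. Over tested genes without exon overlap it was -0.27, -1.14 and -0.050. A change of scaling shifts every gene by the same amount, so the distances between these medians could not change. For Cd3g the call itself was lost with the last of these scalings (adjusted p = 0.170 in the Poisson chi-square test).

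Cd247 was highest in replicate 3 under all 4 scalings, but its log2 difference between replicates 3 and 2 moved from 0.30 with total counts to 1.39 with TMM from genes without exon overlap. In TPM its highest library was replicate 2. The direction of Cd247 between libraries thus depended on the scale.

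**Figure D5:**
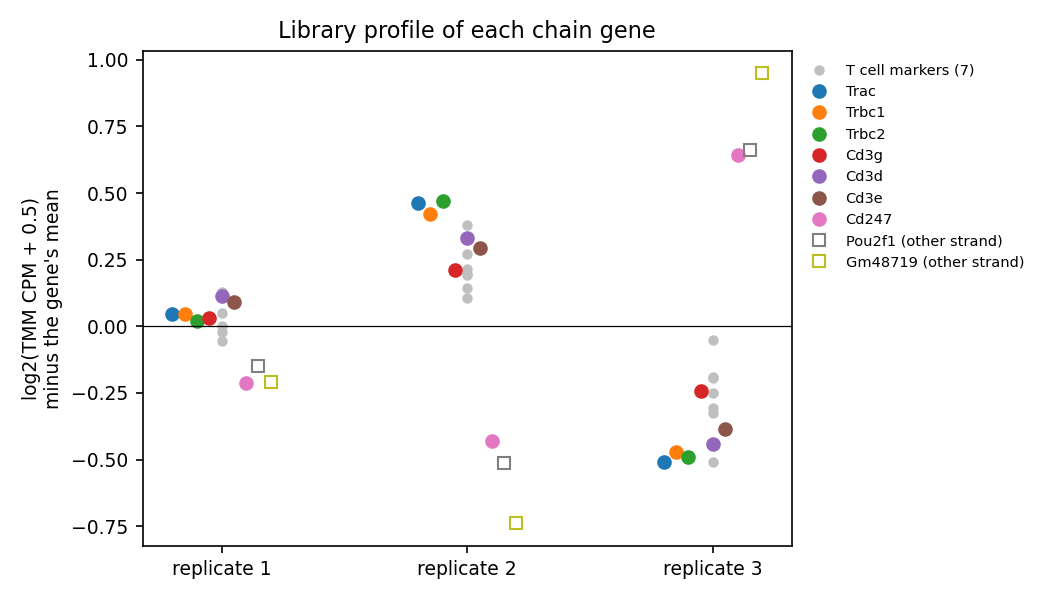
Deviation of log2(TMM CPM + 0.5) from the gene's own mean in each library, for the 7 receptor genes, 7 T cell markers (grey) and the other-strand genes Pou2f1 and Gm48719 (squares). Cd247 lies with the squares in replicates 2 and 3, and the other 6 receptor genes lie on the other side of 0.

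The T cell markers gave the same order in 6 of 7 cases (46.5% of tested genes without exon overlap did), and all 7 were called, against 62.4% of all tested genes. Their log2 CPM of replicate 3 minus replicate 2 ran from -0.16 for Cd6 to -0.89 for Cd28, with a median of -0.50. The 6 receptor genes and the T cell markers thus both had lower CPM in replicate 3 than in replicate 2. The part of T cell content or RNA quality in these differences was not tested.

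Among 4901 protein-coding genes without exon overlap and with at least 100 counts, those nearest to the median profile of the 7 receptor genes were Diaph2, Nudt4, Slc39a14, Nup210 and Dhodh. Nearness was the root mean square difference of the centred log2(CPM + 0.5) over 3 libraries, and it was 0.0228 to 0.0250 for these 5. Of these, Nup210, a nuclear pore gene, had 842, 1475 and 293 counts. The median candidate was at 0.221 and 647 candidates lay nearer than 0.1. Among the receptor genes Cd3d was at 0.0384, Trac at 0.0867, Cd3g at 0.135 and Cd247 at 0.779, so many other genes lay as near to the profile as the receptor genes did, and it is not selective.

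Of 7 genes of alternative receptor chains, Trdc alone reached 1 TPM in every library (23.3% of all annotated genes did). Trdc, the constant gene of the delta chain, had 22, 33 and 12 counts (3.15 ± 1.15 TPM), and its exons overlap the other strand. Trac exceeded it per base by 177, 223 and 107 times in replicates 1, 2 and 3. Of the gamma constant genes, Tcrg-C1 had 1, 0 and 0 counts, Tcrg-C2 had 0, 2 and 2, and Tcrg-C3 and Tcrg-C4 had none. On the counted strand, fragments at the alpha-beta constant genes were thus far more numerous per base than those at the gamma-delta genes.

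Ptcra, which encodes the chain that stands in for alpha in immature thymocytes, had 0 counts. Against a floor of 3 counts per library, Trac was at least 431, 815 and 142-fold higher per base. Fcer1g, whose product can take the place of the zeta chain in other immune cells, also had 0 counts. Cd247 was at least 138, 168 and 121-fold higher per base on the same floor. The recombinase genes Rag1 and Rag2, which cut the receptor segments in developing lymphocytes, had 0 counts, while Dntt, the polymerase that adds bases at the joints, had 61, 102 and 44 counts (17.8 ± 5.78 TPM).

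Most partners of the receptor were counted at 1 TPM or more. Of 14 genes, 12 reached this level in all libraries (41.6% of protein-coding genes did). Of the 12 tested, 7 were called in the variation test, a share near the 62.4% of all tested genes. Lck, the kinase that phosphorylates the CD3 tails, had 1889, 2836 and 686 counts (331 ± 169 TPM), more per base than Cd247 in replicates 1 and 2. Zap70, which binds those tails once phosphorylated, had 456, 660 and 201 counts (79.5 ± 33.8 TPM), while its relative Syk had 0 counts. Trat1, which encodes the adaptor TRIM that associates with the receptor, stood at 117 ± 58.4 TPM.

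The co-receptor gene Cd4 had 1849, 2807 and 662 counts (236 ± 123 TPM), against 0, 1 and 0 for Cd8a and 27, 53 and 17 for Cd8b1. Sla and Sla2 encode adaptors that lower receptor levels together with the ubiquitin ligase Cbl. In log2 CPM, replicate 3 minus replicate 2 was -0.80 for Sla and -0.92 for Cbl but 1.67 for Sla2, whose exons overlap those of Rab5if on the other strand. The median over the tested partners was -0.39.

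All 10 genes of chain assembly and degradation in the endoplasmic reticulum reached 1 TPM in every library (41.6% of protein-coding genes did), and 8 were called, against 62.4% of all tested genes. The chaperone genes Calr (169 ± 68.2 TPM) and Canx (48.8 ± 24.9 TPM), which help newly made receptor chains to fold, had 937, 1330 and 428 and 451, 666 and 160 counts. Syvn1, which encodes a ubiquitin ligase of the degradation pathway and whose exons overlap those of Mrpl49 on the other strand, had 147, 183 and 138 counts. Its log2 difference in CPM between replicates 3 and 2 was 1.14. The median over the 10 genes was -0.55, between those of the 6 receptor genes and of all tested genes.

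The 9 transcription factor genes with known roles at receptor loci all reached 1 TPM in every library (41.6% of protein-coding genes did). Of the 9, 7 were called, against 62.4% of all tested genes. Tcf7 (2898, 4967 and 1197 counts, 619 ± 332 TPM) and Ets1 (2548, 5226 and 942 counts, 183 ± 122 TPM) were the most counted. Bcl11b, needed for T cell commitment, stood at 44.6 ± 25.7 TPM, and Gata3 at 15.1 ± 6.00 TPM with exon overlap. The E protein genes Tcf3 and Tcf12 stood at 28.2 ± 12.8 and 9.84 ± 5.96 TPM. The median log2 difference in CPM between replicates 3 and 2 over the 9 genes was -0.51.

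The B cell receptor offers the matching set of genes in the other lymphocyte lineage. Its light chain constant genes Igkc, Iglc1 and Iglc2 had 0 counts and Cd79b had 0, 1 and 0. Ighm, the mu heavy chain gene, had 842, 1300 and 207 counts (221 ± 140 TPM), with a log2 difference of -1.10 between replicates 3 and 2. Cd79a, the signalling partner of surface immunoglobulin, had 91, 138 and 108 counts (43.7 ± 9.14 TPM) and a difference of 1.19. Both were called, with opposite directions between these libraries, and neither gene's exons overlap the other strand.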

How the data were processed

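Gene counts of 3 libraries were deposited by the authors, made with featureCounts 1.4.6-p4 on the GENCODE M13 annotation (fragments with both ends mapped, strand setting 1, exons joined by gene), per the file headers. The assembly is mm10, per the labels, and the sources used here name neither an aligner version nor a library kit. From the deposited counts and exon lengths TPM were calculated for this work, and CPM from the deposited counts and TMM sizes (edgeR 4.0.16), with DESeq2 1.42.0 factors as an alternative. Symbols came from GENCODE M21 (50376 of 50600 identifiers), and exon overlap between strands (8189 genes) from bedtools 2.31.1.

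The 7 genes, the gene lists and the tests were chosen with earlier results of these data known. Named genes were the 7, the listed genes, the 3 most counted segments of a cluster, the 5 nearest profiles, and other-strand genes, and the values of 1 listed gene are not reported here. Ratios within a library used TPM + 0.1 with exact sign-flip tests, and exact Clopper-Pearson intervals at 95%. The variation test (2 degrees of freedom, threshold 0.05) used the 10662 genes kept by filterByExpr. In simulated libraries of 10662 genes it called 0.105% of unchanged genes, 46% of those changed by 1.5-fold and 97% of those changed by 3-fold. The simulated counts had counting error alone, and the changes were made in replicate 3 only. They held no other spread between replicates, so these shares are not error rates for the real libraries. Duplicate reads could not be separated, so intervals and floors (3 counts) include counting error alone.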

Additional observations from a re-analysis of the deposited data

How the results depend on the processing

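The median TPM of the 7 genes, 275, became 1109 over genes without exon overlap plus the 7, 420 with the longest transcript and, in an alternative chosen after seeing the data, 458 with the principal transcript. Without a replicate the median was 265 to 287, the value of Cd247 except without replicate 3, where it was that of Cd3d (276). The mean of Trac ran from 379 to 754 and that of Trbc2 from 397 to 795, the lowest without replicate 2. The genes called between libraries numbered 6649 of 10662 tested. Without replicates 1, 2 and 3 in turn they numbered 6377 of 10495, 5163 of 10395 and 3303 of 11756. The other scalings gave 6198 (DESeq2 factors), 8797 (totals) and 5720 (TMM from genes without exon overlap), each of 10662. Without a filter 8500 of 19958 were called. All 7 receptor genes were called in each of these except TMM from genes without exon overlap, with 6. The log2 ratios to genes with 0 counts moved most, with 1 TPM added in place of 0.1. Trac over Ptcra went from 12.2 to 8.93 and Cd247 over Fcer1g from 11.4 to 8.11. Among ratios between receptor genes, Cd3d over Cd3g moved most, from -0.05 to -1.56 with the principal transcript (-0.25 with the longest). It changed sign to 0.017 with summed counts and to 0.050 without replicate 3 (-0.11 to 0.050 over the replicates left out). Trac over Cd3e went from 2.69 to 1.21 with the principal transcript. The log2 ratio of Cd3e to Cd3d went from -1.30 to 0.014 with the principal transcript, whose Cd3e length is shorter by more than that of Cd3d. The other 8 ratios kept their direction under each alternative run. No paired analysis was possible because there is 1 group.

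At 3 counts, Ptcra would have had 1.24, 1.19 and 1.56 TPM in replicates 1, 2 and 3, a floor on the counted strand only. The strand of the library, the split of shared Trbc1 and Trbc2 fragments and the share of other-strand fragments in Cd247 limit these levels, and none was tested. With 3 libraries of a single group, no value can be tied to Th1 differentiation.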
